A study of Mus musculus with 10 samples.

Results

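The 10 genes described here encode the secreted and membrane proteins of the VEGF and angiopoietin systems, together with a pair of endothelial junction molecules. They were picked out by gene symbol from the 15075 genes measured in interscapular brown adipose tissue (iBAT), with earlier results of these data known. The ligands were Vegfa, Vegfb, Vegfc, Angpt1 and Angpt2, the receptors Kdr, Flt1 and Tek, and the junction molecules Pecam1 and Cdh5. RNA was sequenced from 5 Control and 5 AdCKO mice of the C57BL/6 strain, all 20 weeks old and housed at room temperature, with 1 library per sample. AdCKO mice carried a homozygous Crls1 allele with loxP sites around exon 4 and a Cre recombinase driven by the adiponectin promoter (Adipoq-Cre). Control mice carried the same floxed allele without Cre, and the sample labels call them wild-type. Crls1 makes cardiolipin, the signature phospholipid of the inner mitochondrial membrane. Adipoq-Cre is active in adipocytes, so endothelial cells were not the cells targeted. Nothing in the labels ties a library to a separate animal other than its replicate number, so the p-values measure the spread between these samples.

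VEGF-A is secreted by many cell types, adipocytes among them, and binds the receptors KDR (VEGFR2) and FLT1 (VEGFR1) on endothelial cells, where KDR carries most of the growth signal and FLT1 binds the ligand tightly while signalling weakly. VEGF-B binds FLT1 and not KDR, and VEGF-C acts mainly through FLT4 (VEGFR3) on lymphatic vessels. ANGPT1 activates the receptor TEK (TIE2) and steadies vessels, whereas ANGPT2 competes with it at the same receptor in many settings. Brown fat is one of the most densely vascularised tissues, and its capillaries deliver oxygen and fuel for heat production.

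Vegfa, Vegfb, Kdr and Flt1 form the ligand and receptor core of the VEGF system, and the letters in front of their start sites are shown because the VEGF results turn on these 4 genes. The windows run 250 bases upstream of the RefSeq start site, on GRCm38.p6, 5′ to 3′ on the strand of the gene, which is the minus strand for all 4. Vegfa lies at chr17:46032378-46032627, Vegfb at chr19:6987652-6987901, Flt1 at chr5:147726012-147726261 and Kdr at chr5:75978456-75978705. Capitals mark any match to the 6 motifs searched on both strands.
Vegfa: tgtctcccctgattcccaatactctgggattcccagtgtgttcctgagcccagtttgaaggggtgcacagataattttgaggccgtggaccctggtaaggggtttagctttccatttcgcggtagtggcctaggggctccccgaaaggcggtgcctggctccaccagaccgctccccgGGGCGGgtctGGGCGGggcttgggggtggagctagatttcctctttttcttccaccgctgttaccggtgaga
Vegfb: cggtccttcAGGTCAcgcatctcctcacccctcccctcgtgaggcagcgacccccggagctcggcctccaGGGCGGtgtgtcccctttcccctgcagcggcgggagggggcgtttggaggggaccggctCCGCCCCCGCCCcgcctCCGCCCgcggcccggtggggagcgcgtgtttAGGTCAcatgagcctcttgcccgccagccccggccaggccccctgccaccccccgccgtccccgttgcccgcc
Flt1: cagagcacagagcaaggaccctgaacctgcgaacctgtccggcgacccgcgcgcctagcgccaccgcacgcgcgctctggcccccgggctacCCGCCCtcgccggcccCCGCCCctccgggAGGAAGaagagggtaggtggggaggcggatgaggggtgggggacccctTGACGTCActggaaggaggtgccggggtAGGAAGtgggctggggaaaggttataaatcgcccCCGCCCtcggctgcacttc
Kdr: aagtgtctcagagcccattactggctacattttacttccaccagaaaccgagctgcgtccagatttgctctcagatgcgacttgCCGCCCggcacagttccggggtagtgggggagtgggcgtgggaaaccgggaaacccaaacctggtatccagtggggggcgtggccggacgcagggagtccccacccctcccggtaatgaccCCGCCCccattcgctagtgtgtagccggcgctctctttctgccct
The GC box GGGCGG was found in each of these windows, at 2 places in Vegfa, 4 in Vegfb, 3 in Flt1 and 2 in Kdr, and in 32.7% of all 32851 promoter windows of this length. The Vegfb window held the nuclear receptor half-site AGGTCA at 2 places, 241 and 73 bases upstream of the start site, a motif present in 14.0% of all windows. The Flt1 window held the cyclic AMP response element TGACGTCA (1.55% of all windows) 81 bases upstream, and the ETS core AGGAAG (29.5%) at 2 places. None of the 4 windows held the ACGTG form of the hypoxia response core (16.6%) or the ATF4 element TGATGNAA (3.45%). GCGTG, the other form of that core, was not among the motifs searched. Its letters occur in the Vegfb, Kdr and Flt1 windows, in Flt1 on the opposite strand. A second Vegfa start site listed by RefSeq lies downstream of the first, so its window (chr17:46025164-46025413) falls inside the gene. That window held the ACGTG form of the hypoxia response core 211 bases upstream of the second site. A match describes letters only, and motifs outside these windows were not searched. RefSeq promoter entries were matched for 6 of the 10 genes.

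Crls1 was checked first. Levels are normalized reads per kb of exon as deposited, shortened to reads per kb. Crls1 stood at 1291, 927, 813, 1101 and 1170 reads per kb in Control replicates 1 to 5 and at 193, 195, 249, 208 and 242 in AdCKO replicates 1 to 5. AdCKO averaged 20.5% of Control, and no AdCKO library reached the Control range (change of -2.27 on the log2 scale, SE 0.13, limma adjusted p = 3.53e-08). After the authors' normalization the values summed to 7615403 to 8171138 reads per library in Control and to 5419800 to 5843024 in AdCKO (p = 0.00794 by an exact two-sided permutation test, and no lower p can come from 5 against 5). The sequencing depth before normalization is unknown. The levels of genes could therefore be read relative to a common total as well, which shifts the median of all genes by 0.47 log2 units towards AdCKO. Skeletal muscle markers stood apart in AdCKO replicates 1, 2 and 4, where 8 markers summed to between 5297 and 21224 reads per kb, against 126 to 139 in AdCKO replicates 3 and 5 and 94.7 to 123 in Control. Calls among the 10 genes that change without these 3 libraries are given both ways.

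Of the 10 genes, 9 passed the filter, which asked for a group mean of 10 or more. Vegfa, Vegfb, Angpt1 and Flt1 fell in AdCKO and Pecam1 rose, at a limma adjusted p under 0.01. Kdr, Tek, Vegfc and Cdh5 were not called, and Angpt2 lay under the filter. Among all 11244 tested genes 28.0% were called lower and 25.6% were called higher, so 4 of 9 lower and 1 of 9 higher are to be read against a background in which about as many genes moved each way. The median log2 fold change of the 9 was -0.40, against -0.01 over all tested genes. The groups did not overlap for 6 of the 10, with 4 below and 2 above Control, where 26.4% of tested genes lay wholly below and 24.5% wholly above. By class, 3 of the 4 tested ligands, 1 of 3 receptors and 0 of 2 junction molecules were called lower.

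**Figure D1:**
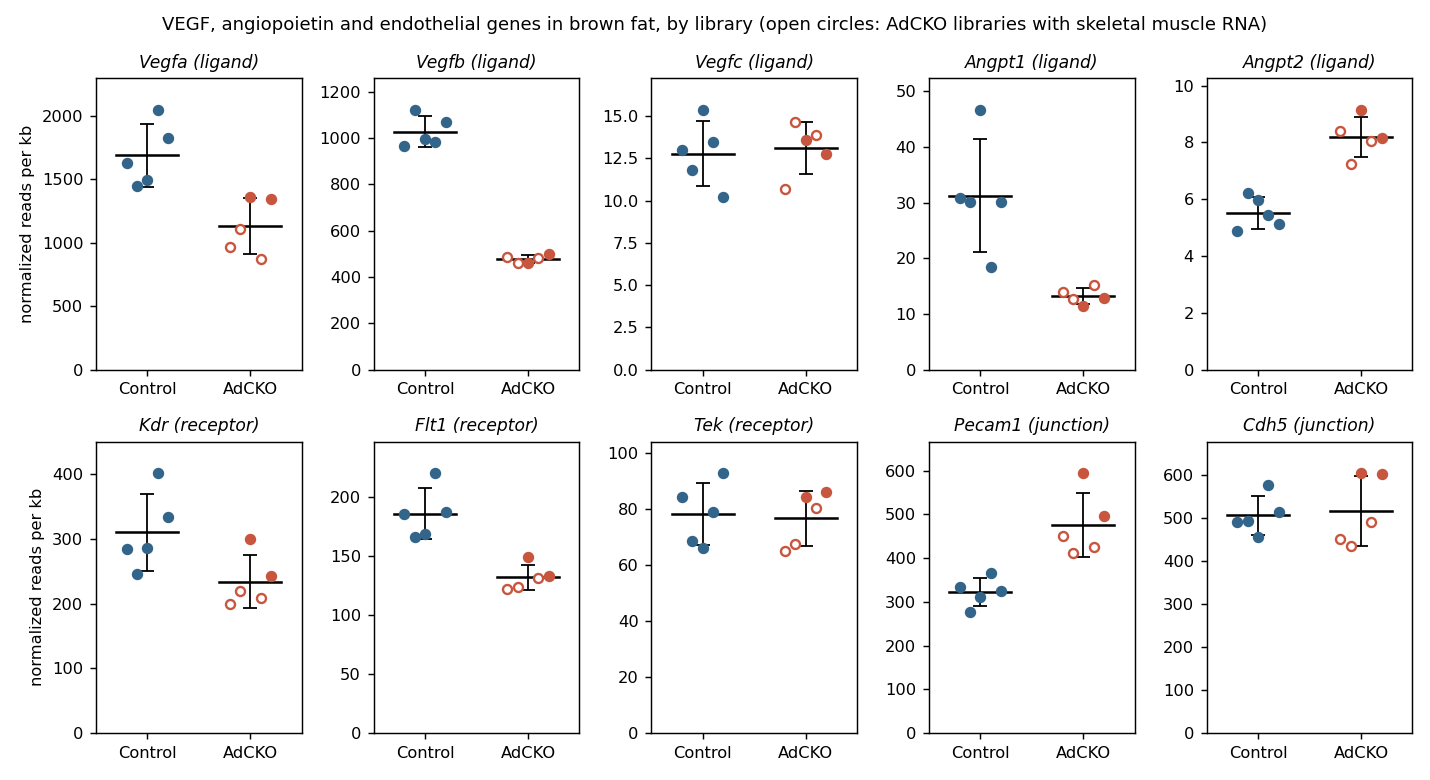
Level of each gene in normalized reads per kb (linear axes from 0) in 5 Control and 5 AdCKO libraries, with the mean (line) and SD (bars). Open circles are AdCKO replicates 1, 2 and 4, which hold skeletal muscle RNA. Vegfa, Vegfb, Angpt1 and Flt1 lie wholly below Control, and Angpt2 and Pecam1 wholly above it.

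The plot of levels by library shows all 10 genes on their own scales. In Control, Vegfa was the most abundant of them and stood at the 98.1 percentile of all genes. Next in order of mean level came Vegfb, Cdh5, Pecam1, Kdr, Flt1, Tek, Angpt1, Vegfc and Angpt2, and only Pecam1 and Kdr were neighbours whose libraries overlapped. In AdCKO the order was Vegfa, Cdh5, Vegfb, Pecam1, Kdr, Flt1, Tek, Angpt1, Vegfc and Angpt2. There Cdh5, Vegfb and Pecam1 overlapped along the order, as did Angpt1 and Vegfc. Vegfb thus lay above Cdh5 in every Control library and within its range in AdCKO. Pecam1 was higher than Kdr in 3 of 5 Control libraries and in 5 of 5 AdCKO libraries.

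Vegfa (chr17:46153943-46169326 on mm9, minus strand) encodes the main vessel growth factor. It stood at 1631, 1445, 1497, 2051 and 1829 reads per kb in Control replicates 1 to 5. The AdCKO replicates 1 to 5 stood at 964, 1107, 1359, 874 and 1349. All 5 AdCKO libraries lay below the lowest Control library, and AdCKO replicates 3 and 5 came nearest to it. The mean went from 1691 ± 250 (SD, n = 5) to 1131 ± 220 (SD, n = 5), or 66.9% of Control. Vegfa fell by 0.59 on the log2 scale (SE 0.14, limma adjusted p = 0.00263). The call did not hold relative to a common total (log2 fold change -0.11, limma adjusted p = 0.491), under quantile normalization (-0.18, 0.277) or without AdCKO replicates 1, 2 and 4 (-0.31, 0.0887). Of 10 adipocyte markers, 8 were called lower, against 28.0% of all genes. The count was 4 relative to a common total (9.77% of all genes) and 7 without AdCKO replicates 1, 2 and 4 (19.7%). Under quantile normalization it was 2 (31.1%), with a median log2 fold change of -0.09, against -0.08 over all genes. Among those called lower as deposited were Lipe, the hormone-sensitive lipase (-1.20), Cidea, a lipid droplet protein of brown fat (-1.63), and Slc2a4, the insulin-responsive glucose transporter (-1.15). Ppargc1a was called higher. The sum of the 10 markers lay between 222463 and 252373 reads per kb in Control libraries and between 138715 and 162881 in AdCKO libraries. In bulk tissue, fewer cells of a type and less RNA per cell cannot be told apart.

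Vegfb (chr19:7056962-7062141, minus strand), the FLT1 ligand that is abundant in tissues with high fatty acid oxidation, changed by the largest margin relative to its spread. Control replicates 1 to 5 stood at 966, 1124, 998, 986 and 1071 reads per kb. The AdCKO replicates stood at 486, 459, 462, 483 and 498, a narrow band far below every Control library and not ordered by the muscle RNA. The Vegfb mean went from 1029 ± 66.0 to 477 ± 16.5 (SD, 5 libraries each), which is 46.4% of Control. It fell by 1.10 on the log2 scale (SE 0.06, limma adjusted p = 4.42e-08). Vegfb was called lower under each of 19 alternatives, with log2 fold changes from -1.13 to -0.62, the latter relative to a common total.

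Vegfc (55162886 to 55271808 on chromosome 8, plus strand), the lymphatic growth factor, was low in both groups, at 12.8 ± 1.93 reads per kb for Control against 13.1 ± 1.52 for AdCKO (SD, n = 5). The groups overlapped fully and Vegfc was not called (log2 fold change 0.04, 95% interval -0.23 to 0.31, limma adjusted p = 0.788). Relative to a common total it was called higher (0.49, limma adjusted p = 0.00378).

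Angpt1 (chr15:42256213-42508523, minus strand), the activating ligand of TEK, stood at 30.9, 30.2, 46.7, 18.4 and 30.2 reads per kb in Control replicates 1 to 5. In AdCKO replicates 1 to 5 it stood at 13.9, 12.8, 11.3, 15.2 and 12.9. Control libraries spread widely, with replicate 3 high and replicate 4 low, yet none came down to the AdCKO range. The mean went from 31.3 ± 10.1 to 13.2 ± 1.42 (SD, n = 5 each), or 42.3% of Control. Angpt1 fell by 1.13 on the log2 scale (SE 0.19, limma adjusted p = 0.000197), and it was called lower under all 19 alternatives, from -1.43 to -0.68. The annotation places 283 exon bases of the antisense long noncoding RNA Gm17473 over Angpt1 exons, and whether the counting used strand is not given in the sources used here.

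Angpt2 (18690263 to 18741562 on chromosome 8, minus strand), the partial antagonist at the same receptor, went the other way at the lowest level of the 10. It stood at 4.86, 6.21, 5.99, 5.44 and 5.12 reads per kb in the Control libraries and at 8.40, 7.23, 9.15, 8.03 and 8.14 in AdCKO, in order of replicate. No AdCKO library came down to the Control range, with means of 5.52 ± 0.57 and 8.19 ± 0.69 (SD, n = 5 each). Both means were under the filter of 10, and Angpt2 was tested only where the filter was dropped or loosened. Without a filter it rose by 0.50 on the log2 scale (SE 0.08, limma adjusted p = 0.000304), in a fit where 24.7% of 15075 genes were called higher and 21.6% lower. Angpt2 lies inside Mcph1 on the opposite strand and shares no exon bases with it.

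Kdr (chr5:76329299-76374453, minus strand), the main signalling receptor for VEGF-A, stood at 284, 246, 285, 402 and 333 reads per kb in Control replicates 1 to 5. AdCKO replicates 1 to 5 stood at 199, 220, 300, 209 and 243. AdCKO replicate 3 lay inside the Control range, and the other 4 lay below it. The difference in Kdr did not pass the threshold (log2 fold change -0.40, SE 0.14, 95% interval -0.70 to -0.10, limma adjusted p = 0.0229). Without AdCKO replicate 3 Kdr was called lower (-0.49, limma adjusted p = 0.00574), and without AdCKO replicates 1, 2 and 4 it stood at -0.18 (limma adjusted p = 0.401). Relative to a common total the sign turned, to 0.08 (limma adjusted p = 0.628).

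Flt1 (chr5:148373772-148537564, minus strand), the receptor shared by VEGF-A and VEGF-B, stood at 186, 167, 169, 221 and 188 reads per kb in Control replicates 1 to 5. In AdCKO replicates 1 to 5 it stood at 122, 124, 150, 132 and 133, all below the lowest Control library. Its mean went from 186 ± 21.7 to 132 ± 10.8 (SD, n = 5 each), or 71.0% of Control. It fell by 0.49 on the log2 scale (SE 0.09, limma adjusted p = 0.000353). Relative to a common total Flt1 stood at -0.01 (limma adjusted p = 0.942), and without AdCKO replicates 1, 2 and 4 at -0.39 (limma adjusted p = 0.0209). The deposited values give 1 transcript per gene and do not separate membrane FLT1 from its soluble form, which traps VEGF-A.

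Tek (chr4:94405980-94541667, plus strand), the angiopoietin receptor, stood at 84.4, 68.7, 65.9, 78.8 and 92.9 reads per kb in the Control libraries and at 65.0, 67.6, 84.2, 80.3 and 85.9 in AdCKO, in order of replicate. The groups lay on top of each other. The log2 fold change of Tek was -0.03 (95% interval -0.27 to 0.22, limma adjusted p = 0.85), and relative to a common total Tek was called higher (0.45, limma adjusted p = 0.00276). Without AdCKO replicates 1, 2 and 4 it stood at 0.13 (limma adjusted p = 0.446).

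Pecam1 (chr11:106515532-106576595, minus strand) encodes CD31, an adhesion molecule of endothelial junctions that leukocytes and platelets also carry. It stood at 333, 278, 311, 367 and 325 reads per kb in Control replicates 1 to 5. The AdCKO replicates stood at 452, 411, 595, 426 and 496. All AdCKO libraries exceeded the highest Control library, and AdCKO replicate 3 was the highest. Pecam1 went from a mean of 323 ± 32.5 to 476 ± 73.9 (SD, n = 5 each) and rose by 0.55 on the log2 scale (SE 0.11, limma adjusted p = 0.000613). It was called higher under all 19 alternatives, from 0.47 to 1.03. All 10 leukocyte markers were also called higher, against 25.6% of all genes. The count was 9 without AdCKO replicates 1, 2 and 4 (18.8% of all genes) and 9 under quantile normalization (22.4%). Their sum lay between 518 and 1452 reads per kb in Control libraries and between 6778 and 9123 in AdCKO libraries. Within AdCKO this sum was lower in replicates 3 and 5 (6778 to 6940), where Pecam1 was highest, than in replicates 1, 2 and 4 (7101 to 9123). Cd68, a lysosomal protein of macrophages, rose by 4.09 on the log2 scale, and Lyz2, the macrophage lysozyme, by 3.61. The part of leukocytes in the Pecam1 level was not tested.

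Cdh5 (106625525 to 106668402 on chromosome 8, plus strand) encodes VE-cadherin, the adherens junction protein of endothelium. It stood at 491, 494, 455, 578 and 515 reads per kb in the Control libraries and at 452, 435, 605, 490 and 603 in AdCKO, in order of replicate. AdCKO replicates 3 and 5 lay above every Control library, replicates 1 and 2 lay below, and replicate 4 lay within. Cdh5 was not called (log2 fold change 0.02, 95% interval -0.21 to 0.25, limma adjusted p = 0.885), and relative to a common total it was called higher (0.50, limma adjusted p = 0.000978). Without AdCKO replicates 1, 2 and 4 it stood at 0.26 (limma adjusted p = 0.0631). Vegfa, Kdr, Flt1, Tek, Pecam1 and Cdh5 all stood lower in the 3 AdCKO libraries with skeletal muscle RNA than in the other 2, and the part of the muscle RNA in these levels was not tested. Vegfb, Vegfc, Angpt1 and Angpt2 overlapped between these libraries.

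**Figure D2:**
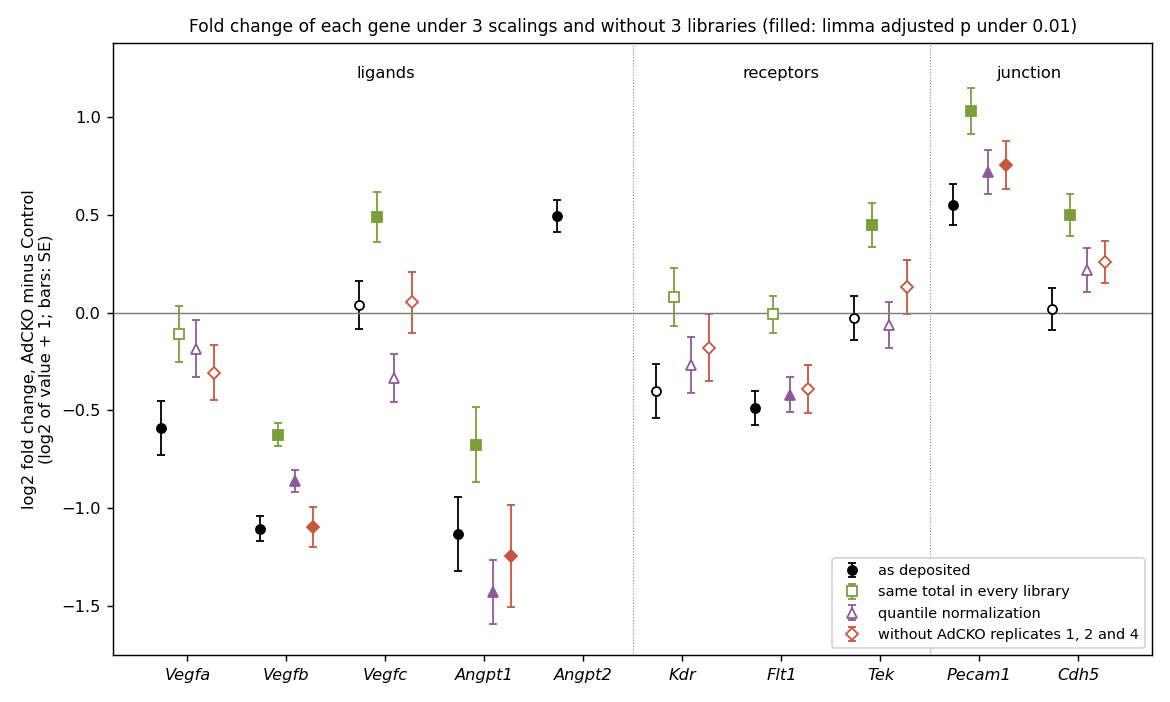
Log2 fold change of each gene, AdCKO minus Control on log2(value + 1), with its SE, for the values as deposited, with every library set to the same total, after quantile normalization, and without AdCKO replicates 1, 2 and 4. Filled symbols have a limma adjusted p under 0.01, and the Angpt2 value comes from the fit without a filter. Vegfb and Angpt1 lie below 0 and Pecam1 above 0 in all 4 versions, whereas Vegfc, Kdr and Tek lie on both sides of 0.

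The plot of fold changes under different scalings separates the genes whose call did not depend on the scaling from those whose call did. Relative to a common total 4 genes were called higher (Vegfc, Tek, Pecam1 and Cdh5) and 2 lower (Vegfb and Angpt1), where 60.6% of all tested genes were called higher and 9.77% lower. Under quantile normalization 1 was called higher and 3 lower (Vegfb, Angpt1 and Flt1), against 22.4% and 31.1% of all genes. Without AdCKO replicates 1, 2 and 4, Pecam1 was called higher (0.76) and Vegfb (-1.10) and Angpt1 (-1.24) lower, where 18.8% of genes were called higher and 19.7% lower.

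**Figure D3:**
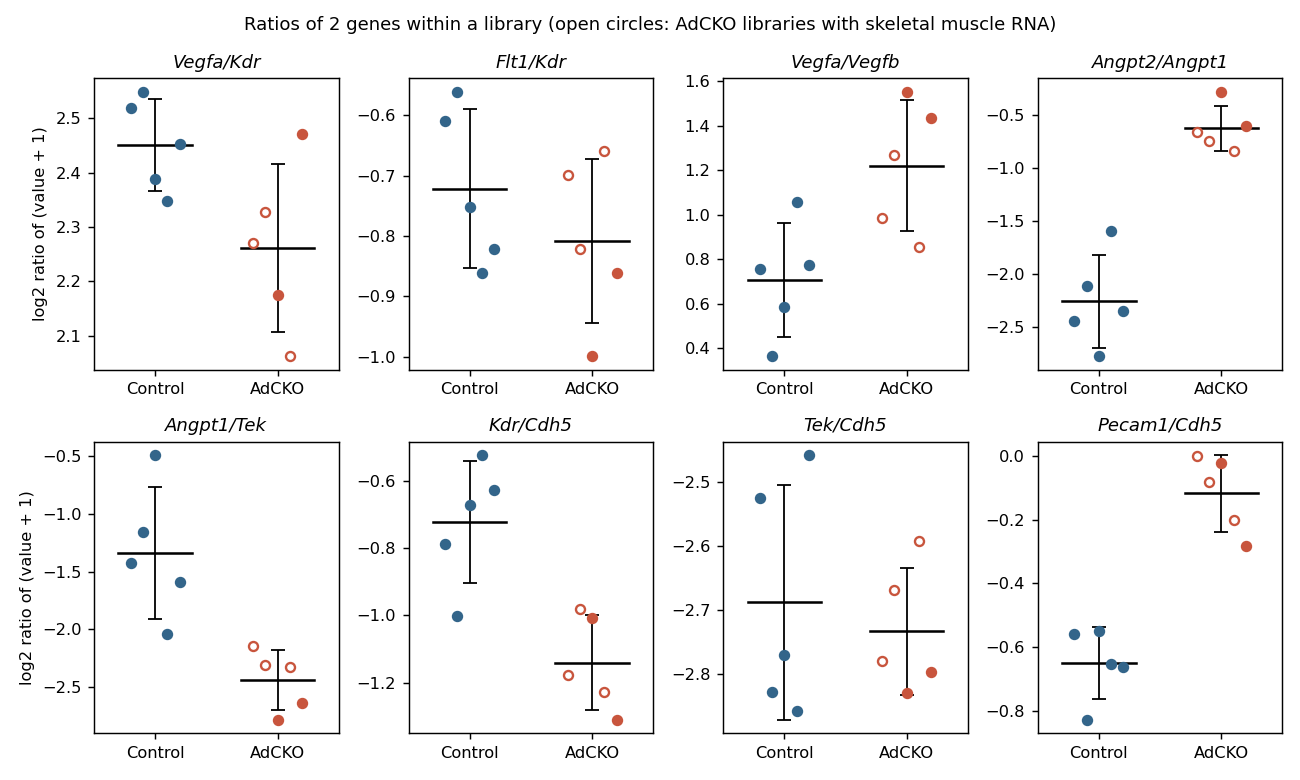
Log2 ratio of 2 genes within each library, from values + 1, in 5 Control and 5 AdCKO libraries, with the mean (line) and SD (bars). Axes do not start at 0, and open circles are AdCKO replicates 1, 2 and 4. The groups are apart for Angpt2/Angpt1, Angpt1/Tek and Pecam1/Cdh5 and overlap for the other 5 ratios.

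Ratios of 2 genes in the same library do not depend on the total of the library, and 8 of them were tested by exact two-sided permutation with adjustment over the 8. The plot of ratios shows each library. Angpt2 over Angpt1 rose from 0.21 to 0.65 as geometric means, a log2 difference of 1.63 (SE 0.22, adjusted p = 0.0212 by the exact test). The AdCKO libraries, between -0.84 and -0.28 on the log2 scale, stood clear of the Control libraries, between -2.77 and -1.59. Angpt1 over Tek fell by 1.11 on the log2 scale (SE 0.28, adjusted p = 0.0212 by the exact test), also with no overlap. Angpt1 thus changed relative both to Angpt2 and to Tek, a receptor whose own level was not called different.

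Among the VEGF genes, Vegfa over Vegfb rose from 1.63 to 2.33 as geometric means (log2 difference 0.51, SE 0.17, adjusted p = 0.0381 by the exact test), with overlapping groups. This call was lost when any library other than Control replicate 4 or AdCKO replicate 4 was left out (adjusted p up to 0.0762). Vegfa over Kdr did not pass after adjustment (log2 difference -0.19, 95% interval -0.37 to -0.01, adjusted p = 0.0635 by the exact test), though without AdCKO replicate 5 it did (-0.24, adjusted p = 0.0212). Flt1 over Kdr gave -0.09 (95% interval -0.28 to 0.11, adjusted p = 0.399 by the exact test), so a change in the balance of the VEGF receptors was not detected.

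Set against Cdh5, Kdr fell by 0.42 on the log2 scale (SE 0.10, adjusted p = 0.0317 by the exact test) and Pecam1 rose by 0.53 (SE 0.07, adjusted p = 0.0212). Pecam1 over Cdh5 lay between -0.83 and -0.55 in the Control libraries and reached at least -0.28 in the AdCKO libraries, with no overlap. Tek over Cdh5 differed by -0.05 (95% interval -0.26 to 0.17, adjusted p = 0.627 by the exact test) as deposited, and by -0.28 (adjusted p = 0.0212) after quantile normalization. As deposited, Pecam1 thus moved up and Kdr down relative to VE-cadherin, with overlapping groups for Kdr, and no change of Tek was detected. With 5 Control and 2 AdCKO libraries, after leaving out AdCKO replicates 1, 2 and 4, the smallest exact p is 0.0476 and no ratio passed (adjusted p = 0.0762 for the ratios listed next). The log2 differences were 1.81 for Angpt2/Angpt1, -1.37 for Angpt1/Tek, -0.44 for Kdr/Cdh5 and 0.50 for Pecam1/Cdh5.

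The endothelial label was checked with 18 further markers of blood vessel endothelium, which were all tested. Of these, 8 were called higher and 0 lower, against 25.6% and 28.0% of all genes. Leaving out AdCKO replicates 1, 2 and 4 gave 7 and 0, against 18.8% and 19.7%. The median log2 fold change was 0.28, and 0.45 without those 3 libraries. Under quantile normalization, without Control replicate 2 and without AdCKO replicate 5, 1 was called lower. Plvap, a protein of fenestrated endothelium, rose by 1.81 on the log2 scale, and Vwf, the von Willebrand factor of larger vessels, by 1.22. Ecscr, an endothelial surface protein, rose by 0.54, and Sox17, an arterial transcription factor, by 0.31. The sum of the 18 lay between 2326 and 2985 reads per kb in Control libraries, from 2963 to 3166 in AdCKO replicates 1, 2 and 4, and from 3676 to 4042 in AdCKO replicates 3 and 5. The count of 8 fell to between 3 and 5 when Control replicate 1, 2, 3, 4 or 5 or AdCKO replicate 3, 4 or 5 was left out. It was 17 relative to a common total, where 60.6% of all genes were called higher. Endothelial markers were present in every library of both groups.

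A level relative to the mean log2 of these 18 markers moves every gene by the same amount within a library, and Plvap, Vwf and Cldn5 (0.96) rose most among the 18. On that scale, as a description, the AdCKO minus Control difference was -0.81 for Kdr, -0.89 for Flt1, -0.43 for Tek and -0.39 for Cdh5, and the groups did not overlap for any of these. For Pecam1 the difference was 0.15, with overlap. For the ligands Vegfa, Vegfb and Angpt1 it was -0.995, -1.51 and -1.54, again without overlap, and for Vegfc (-0.37) and Angpt2 (0.09) the groups overlapped.

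**Figure D4:**
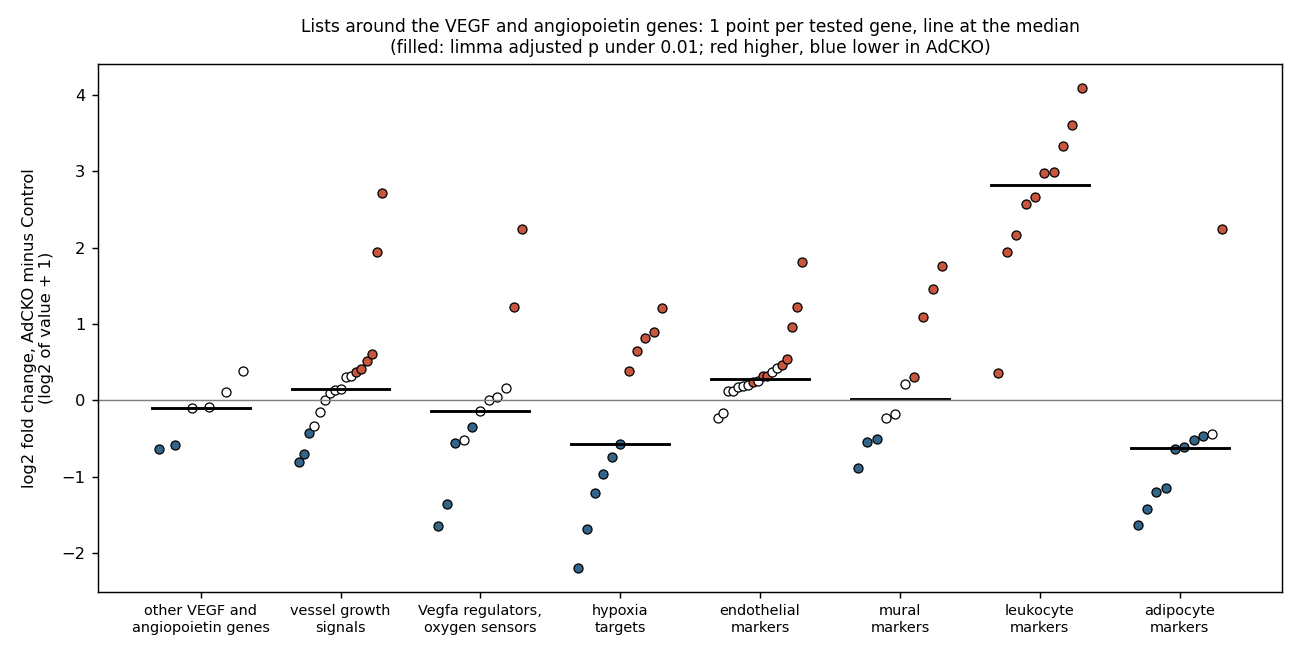
Log2 fold change, AdCKO minus Control, of every tested gene in 8 lists around the VEGF and angiopoietin genes, with the median of each list as a line. Filled points have a limma adjusted p under 0.01, red for higher and blue for lower. Leukocyte markers all lie above 0, and the other lists hold genes on both sides of 0.

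The plot of gene lists sets the 10 genes among their neighbours in the pathway. Of 8 further members of the VEGF and angiopoietin families, 6 were tested, of which 2 were called lower and 0 higher, against 28.0% and 25.6% of all genes. Relative to a common total 4 were called higher (Figf, Flt4, Tie1 and Ptprb) and 0 lower, where 60.6% of all genes were called higher. Nrp1, a co-receptor that strengthens VEGF-A signalling through KDR, fell by 0.63 on the log2 scale (SE 0.11, limma adjusted p = 0.000328), with means of 440 ± 63.4 and 283 ± 36.3 reads per kb (SD, 5 libraries each). Nrp2, the co-receptor tied to lymphatic growth, fell by 0.58 (SE 0.13, limma adjusted p = 0.00209). Neither was called relative to a common total (Nrp1 -0.15 and Nrp2 -0.10). Without AdCKO replicates 1, 2 and 4 neither was called either, at -0.44 for Nrp1 (limma adjusted p = 0.0194) and -0.35 for Nrp2 (limma adjusted p = 0.0709). Figf, which encodes VEGF-D, stood at 34.3 ± 8.12 and 44.7 ± 7.65 (SD, n = 5 each) and was not called (log2 fold change 0.39, limma adjusted p = 0.0494).

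The receptors Flt4 (0.11) and Tie1 (-0.10) and the TEK phosphatase Ptprb (-0.09) were not called, with overlapping groups. Pgf, the placental growth factor, and Angpt4, a further TEK ligand, lay under the filter at group means of at most 2.61 reads per kb. Without a filter Angpt4 was called higher (0.24, limma adjusted p = 0.00234), with all 5 AdCKO libraries above Control, and Pgf was not called (0.10, limma adjusted p = 0.119). Of 6 lymphatic markers listed, 2 were tested. Both, Lyve1 (1.27) and Pdpn (1.18), were called higher, against 25.6% of all genes, and macrophages or fibroblasts can also express them. Reln lay under the filter, at means of 1.41 (Control) and 5.08 (AdCKO) reads per kb. Without a filter Reln was called higher (1.32, limma adjusted p = 1.00e-06) and Mmrn1 was not called (0.40, limma adjusted p = 0.122). In that fit 24.7% of all genes were called higher. Prox1, the transcription factor that defines lymphatic endothelium, had means of 0.35 (Control) and 0.37 (AdCKO) reads per kb, the lowest levels named here.

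Of 17 tested signals of vessel growth outside these families, 6 were called higher and 3 lower, where 25.6% and 28.0% of all genes were. The counts became 12 and 1 relative to a common total, where 60.6% and 9.77% of all genes were called. Leaving out AdCKO replicates 1, 2 and 4 gave 6 and 1, against 18.8% and 19.7%. Thbs1 (2.72) and Thbs2 (1.94), the thrombospondins that inhibit vessel growth, rose, as did Aplnr (0.61), the apelin receptor. Dll4, a Notch ligand of tip cells that VEGF-A induces, fell by 0.81 on the log2 scale, with means of 35.7 ± 2.66 and 20.0 ± 2.50 reads per kb (SD, 5 libraries each, limma adjusted p = 1.43e-05). Apln, which encodes the peptide apelin, fell by 0.71, and Efnb2, an arterial ephrin, by 0.42. The median of the list was 0.15, against -0.01 over all tested genes.

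Of 11 regulators of Vegfa and of oxygen sensing, 2 were called higher and 4 lower, against 25.6% and 28.0% of all genes. The counts became 5 and 2 relative to a common total, against 60.6% and 9.77%. Leaving out AdCKO replicates 1, 2 and 4 gave 2 and 3, against 18.8% and 19.7%. Ppargc1a, a coactivator that can induce Vegfa, rose by 2.24 on the log2 scale, and Atf4, a stress response factor, by 1.22. Vegfa itself fell as deposited. Egln1, the oxygen-sensing prolyl hydroxylase that marks HIF proteins for degradation, fell by 1.64, with means of 855 ± 158 and 271 ± 38.9 reads per kb (SD, 5 libraries each), and Epas1, which encodes HIF-2α, fell by 0.57. Hif1a, chosen after its values were seen because it encodes the other main HIF subunit, was not called (log2 fold change 0.05, limma adjusted p = 0.701).

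Classical hypoxia-induced genes were split, with 5 called higher and 6 lower of 11 tested, against 25.6% and 28.0% of all genes. The counts became 5 and 4 relative to a common total, against 60.6% and 9.77%. Leaving out AdCKO replicates 1, 2 and 4 gave 4 and 6 of 10 tested, against 18.8% and 19.7%. Pdk1, a kinase that holds back pyruvate oxidation, fell by 2.19 on the log2 scale, Hk2, a hexokinase, by 1.68, and Ldha, lactate dehydrogenase, by 0.97. Slc2a1, the basal glucose transporter, rose by 1.21, as did P4ha2 (0.89), P4ha1 (0.81), Ndrg1 (0.65) and Adm (0.38). Bnip3, a mitophagy receptor (-1.21), Pgk1, a glycolytic enzyme (-0.74), and Mxi1, a MYC antagonist (-0.57), were the other 3 called lower, named to complete the list. P4ha1 and P4ha2 are collagen prolyl hydroxylases. Vegfa is itself a textbook hypoxia-induced gene and lay with those that fell as deposited. Its call did not hold relative to a common total (-0.11) or without AdCKO replicates 1, 2 and 4 (-0.31).

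Mural cells, the pericytes and smooth muscle that wrap vessels and are a source of Angpt1, were read from 10 markers. Of these, 4 were called higher and 3 lower, against 25.6% and 28.0% of all genes. The counts became 5 and 1 relative to a common total, against 60.6% and 9.77%. Leaving out AdCKO replicates 1, 2 and 4 gave 3 and 2, against 18.8% and 19.7%. Rgs5, a pericyte marker, fell by 0.89 on the log2 scale, with means of 620 ± 58.1 and 335 ± 42.4 reads per kb (SD, 5 libraries each), and the pericyte markers Cspg4 (-0.55) and Kcnj8 (-0.50) were also called lower. Acta2 (1.46) and Myh11 (1.09), contractile proteins of smooth muscle, rose, and so did Des (1.75), which skeletal muscle also expresses. Notch3 (0.30) was the other marker called higher. The remaining mural markers Pdgfrb (0.22), Abcc9 (-0.23) and Higd1b (-0.17) were not called. The part of mural cells in the Angpt1 level was not tested.

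The genes whose pattern over the 10 libraries lay nearest to that of Vegfa, by root mean square distance of centred log2 values, were Rab9 (0.10), Fam162a (0.10) and Mif4gd (0.10). Kdr ranked 37 and Flt1 ranked 67 in that order, ahead of Vegfb at 4013. Nearest to Cdh5 were Nxpe4 (0.07), Rapgef3 (0.08) and Clk3 (0.08), and Tek ranked 138, ahead of Kdr at 4066 and Pecam1 at 5145. Values were centred over all 10 libraries, so the distance includes the difference between the groups, and genes of like fold change rank near. These ranks describe 10 libraries that share the skeletal muscle split noted above.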

How the data were processed

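Polyadenylated RNA from the iBAT of 5 Control and 5 AdCKO mice was sequenced by the authors. Alignment was to mm9 (STAR), exon counting by iRNA-seq and normalization by DESeq2, and the submitters' processing notes name STAR, DESeq2 and mm9 too. The deposited signal is the normalized read number divided by exon length in kb, for 15075 genes with 1 RefSeq transcript each, and is not a count. None is 0 (smallest 0.0532), so low values may have been moderated, and fold changes of low genes are then understated. Also deposited were columns of log2 fold change and adjusted p-value, and lists of called genes, none of which was used.

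Values were tested as log2(value + 1) by two-sided moderated statistics of limma 3.58.1 with an intensity trend (R 4.3.3) over 11244 genes whose mean reached 10 in Control or AdCKO, with Benjamini-Hochberg adjustment over them and a threshold of 0.01. Fold changes on this scale understate the change of low genes. The count test of the study could not be run on these values. Ratios of 2 genes were compared with an exact permutation test in Python 3.11.15, adjusted over 8 ratios, with a threshold of 0.05. In simulated normal values for AdCKO against Control, 200 of 11244 genes were changed, where the data had 2879 called higher and 3152 lower. There the limma test recovered 30 of 67 genes changed by 0.5, 56 of 67 changed by 1 and 63 of 66 changed by 2 log2 units, with 0 false calls. With so few genes changed, these rates need not hold for the real fit. The depth of each library is unknown, so the precision given is the spread between 5 libraries.

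The 10 genes and all lists (other family members, vessel growth signals, Vegfa regulators, hypoxia targets and markers of cell types) were chosen with earlier results of these data known. Named genes are the 10 genes, Crls1, the other members of the 2 families, at most 4 members of each list with the smallest p, called members that go against their list, and 3 genes nearest in pattern to Vegfa and to Cdh5. Prox1, Hif1a, Cldn5, Bnip3, Pgk1, Mxi1, Notch3, Pdgfrb, Abcc9 and Higd1b were named after their values were seen. Erythroid markers were not called (0 of 2 tested). Alternatives were other pseudocounts (0.1 and 10), the filter dropped or set to an overall mean of 1, a common total, quantile normalization, limma without the trend, the replicate number as a block, a threshold of 0.05, and each library left out in turn. Leaving out AdCKO replicates 1, 2 and 4, and levels relative to endothelial markers, were added after seeing the data. Promoter letters came from RefSeq tables on GRCm38.p6, and gene positions are on mm9.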

Additional observations from a re-analysis of the deposited data

Results flagged for a closer look

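In 3 of 54 groups of 5 libraries looked at, 1 library stood far from the other 4, by a gap of more than 0.71 of the range of the group, which chance does in about 1 of 20 groups. Pgf, the placental growth factor, was lowest in AdCKO replicate 4 at 2.24 normalized reads per kb, with the others between 2.63 and 2.77. Angpt4 was highest in Control replicate 3 at 2.06, with the others between 1.79 and 1.80. Flt4, the VEGF-C receptor, was highest in Control replicate 4 at 24.0, with the others between 15.1 and 16.9. Pgf and Angpt4 were under the filter, and Flt4 was not called with all libraries.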

How the results depend on the processing

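Vegfb, Angpt1 and Pecam1 kept their direction and their call under all 19 alternatives. Relative to a common total the genes called numbered 6811 higher and 1098 lower, against 2879 and 3152 as deposited, so 86.1% of calls were higher, against 47.7%. Among the 10 genes, 4 were then called higher and 2 lower, and Tek turned from -0.03 to 0.45 on the log2 scale. With the filter dropped or set to an overall mean of 1, 2 were called higher, since Angpt2 was then tested. Without AdCKO replicates 1, 2 and 4, 2 were called lower, a setting that also has fewer samples. For these libraries and settings the cause was not tested.

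The ratio tests with the replicate number as a block cannot pass with 5 pairs (smallest p 0.0625), and their adjusted p was 0.167 for Vegfa/Vegfb (log2 difference 0.51), Angpt2/Angpt1 (1.63), Angpt1/Tek (-1.11), Kdr/Cdh5 (-0.42) and Pecam1/Cdh5 (0.53). With 2 AdCKO libraries left none of these passed (adjusted p 0.0762, with a smallest exact p of 0.0476), at 0.79 for Vegfa/Vegfb, 1.81 for Angpt2/Angpt1, -1.37 for Angpt1/Tek, -0.44 for Kdr/Cdh5 and 0.50 for Pecam1/Cdh5. Tek/Cdh5 passed under quantile normalization at -0.28. With 1 library left out in turn, Vegfa/Kdr ran from -0.24 to -0.14 and Vegfa/Vegfb from 0.43 to 0.61.

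Libraries with the same number deviated from their group means with correlations from -0.27 to 0.10, against -0.30 to 0.38 for different numbers. No pairing by number was seen, which does not show that the samples are unpaired. The limma fit with the replicate number as a block called 2592 genes higher and 2838 lower and changed no call among the 9 tested genes, and it called 5 of the 18 endothelial markers higher. The unknown depth limits what can be said of Vegfc, Angpt2, Pgf, Angpt4, Reln and Mmrn1, whose values were low.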
